A study of Lotus japonicus with 10 samples.

Results

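The comparison sets 3 arrays from leaves kept for 3 h in glutathione (GSH) against 4 arrays from unelicited leaves of the same plant line, 7 of the series' 10 arrays, and describes it across every gene family on the array. Groups came from the sample titles, and the other 3 arrays, from leaves kept in GSH for 6 h, entered only the estimate of the spread. All plants were Lotus japonicus MG20, an accession of a model legume, grown in a glasshouse. For the 3 h group, mature leaves were detached and lay for that time in a 10 mM GSH solution on a shaker (200 rpm) at 28 °C, while the unelicited leaves carry a time of 0 h. No array here holds leaves that were handled likewise without GSH, so the effects of detachment, submersion, shaking, warmth and elapsed time cannot be told apart from that of GSH. The labels call the arrays of a group biological replicates and say no more, so p-values measure the spread between these samples.

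The array is a custom one-colour Agilent design for a chosen set of genes. Its 5716 non-control probes carry 3148 names, which make 3082 targets once names that share a locus are joined. Names are quoted as the files give them, and any part that follows the gene name is a sequence clone or a chromosome and clone, the only position the files hold. Values are log2 signals minus the 75th percentile of their array, so 0 stands for that percentile, and levels of different probes are not comparable. Between 2644 and 3063 probes were well above background on the 3 h arrays and between 3168 and 3805 on the unelicited arrays. With so few arrays the precision of each value is limited. Unelicited replicates 1 and 2 were on slide 1 (scan 1), and unelicited replicates 3 and 4 shared slide 2 (scan 2) with all GSH arrays, so the counts over all targets and part of the changes are also given on slide 2 alone. Across probes the 3 h arrays correlated with each other at 0.978 to 0.986 and with unelicited arrays at 0.439 to 0.452 on slide 2 and 0.384 to 0.419 on slide 1, while among unelicited arrays the range was 0.973 to 0.978 for pairs on one slide and 0.827 to 0.853 for pairs across slides. The tissue label could not be checked on this design, since 0 of 9 leaf marker patterns and 0 of 7 root and nodule patterns met a name.

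Plants respond to elicitors, compounds that mimic attack, by rewriting transcription within hours. In legumes this response feeds phenylalanine through the phenylpropanoid pathway into chalcones and then into isoflavonoids, from which Lotus builds its phytoalexin, the isoflavan vestitol. Glutathione is a thiol tripeptide of the cell's redox buffer that has long been applied from outside to set off phytoalexin synthesis in legumes. Lotus leaves also store cyanogenic glucosides, which release hydrogen cyanide when a beta-glucosidase meets them in damaged tissue.

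Most of the measured genes differed between 3 h and unelicited leaves, in both directions and about equally often. Of 3309 probes with an estimate, 2456 passed (limma, Benjamini-Hochberg adjusted p under 0.05; 74.2%), 1240 higher at 3 h (37.5%) and 1216 lower (36.7%). With 1 probe for each of 1970 targets, 1451 passed (73.7%), 736 higher (37.4%) and 715 lower (36.3%), with a median log2 fold change over all targets of 0.00. Targets that passed differed by a median of 2.77 on the log2 scale in either direction, or 2.43 with dim members held at the bounds explained below. All 3 h arrays lay above all 4 unelicited arrays for 754 targets (38.3%) and below them for 729 (37.0%). Every count below is to be read against these shares. Targets that passed seldom overlapped between the groups, so a lack of overlap adds little to a call. Among C3HC4 zinc fingers it held for 82 of 87 that rose and 64 of 67 that fell. In whole leaves, fewer cells of a type and less RNA per cell cannot be told apart.

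On slide 2 alone 2581 of 3307 probes passed (78.0%), and 785 targets were higher (39.8%) and 747 lower (37.9%). In both sets 678 targets rose and 661 fell, and 0 passed with opposite signs. A further 112 passed only with all 4 unelicited arrays and 193 only on slide 2. Changes over 4 on the log2 scale in both sets were seen for 221 targets that rose and 165 that fell, and changes over 8 for 30 and 9. With dim members held at their bounds these counts were 205 and 121, and 23 and 4. No 3 h array measured 188 targets well above background that every unelicited array did. Conversely, 46 targets were measured so on every 3 h array and on no unelicited array. For a target measured in one group only, the fold is a lower bound, written "at least N-fold". The bound divides the bright group's mean by the dim group's mean, after each dim signal was lifted to the lowest signal that counted as well above background on its array. Where only part of the dimmer group's arrays measured a target, no bound is given and the size of its change is less certain. Directions depend on the scaling. With the 75th percentile taken only over the probes measured on all arrays, the median over all targets moved to −1.06, with 466 targets higher and 982 lower. Among probes that scaling gave 801 higher and 1660 lower, and normexp background correction 998 higher and 578 lower.

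The balance of higher and lower members varied between families. Among 85 name families with at least 5 targets tested, 39 had more members up than down and 41 more down than up, and the other 5 were even. Among families with at least 10 tested, phenylalanine ammonia-lyase and CYP94 names stood at one end of that range and CYP90 and UGT91 names at the other.

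**Figure D1:**
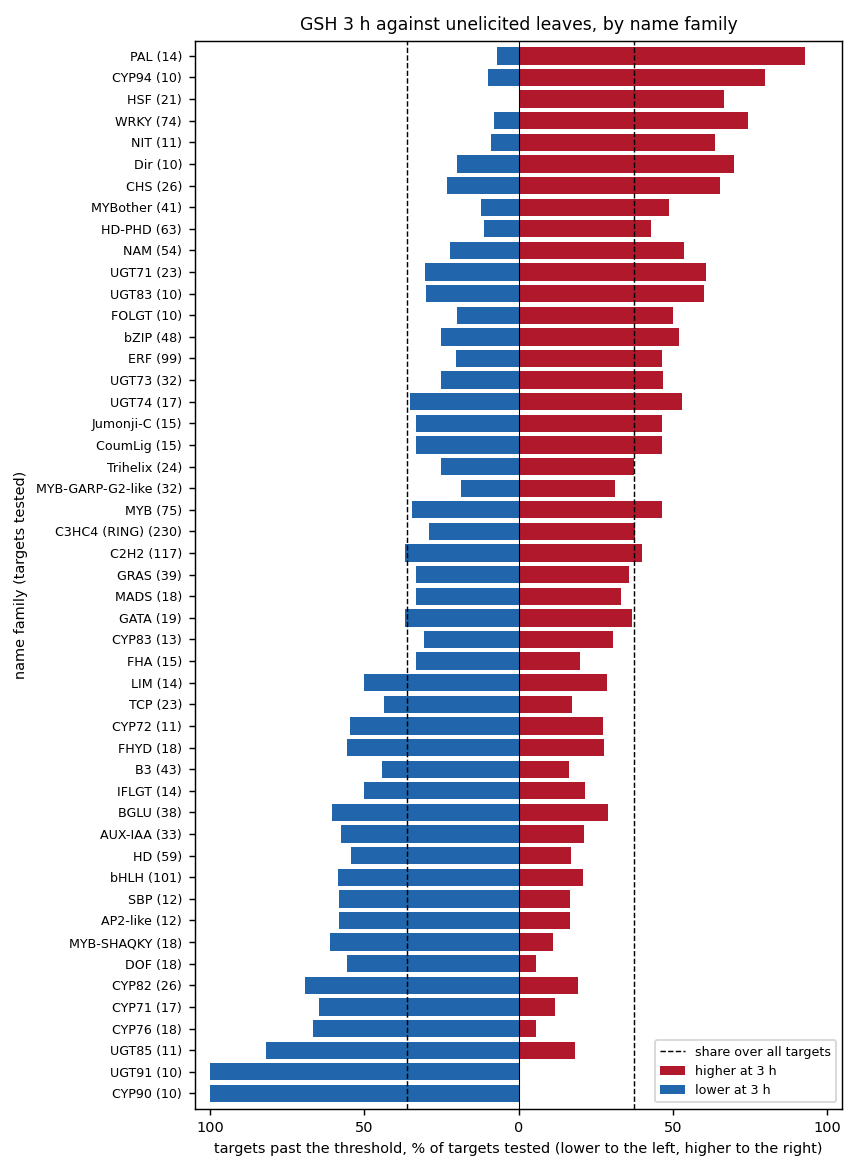
Share of tested targets that passed the threshold in each name family with at least 10 targets tested (numbers in brackets), higher at 3 h to the right and lower to the left, with dashed lines at the shares over all targets, 37.4% and 36.3%. PAL names reach 92.9% higher, while all tested UGT91 and CYP90 names are lower. With normexp background correction 3 UGT91 and 4 CYP90 names are lower.

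The largest rise belonged to LjZF-C2H2-34, a zinc finger of the C2H2 class, whose log2 signals were 8.29, 8.16 and 8.74 in 3 h leaves, against −5.30, −4.70, −3.50 and −4.23 in unelicited leaves (adjusted p = 1.59e-08). All 3 h arrays lay far above all unelicited ones, and the gap was 12.26 on slide 2 alone. A glycosyltransferase name, IFLGT03_chr4.CM0739.130.nd, gave 7.13, 7.53 and 7.88 in 3 h leaves, against −3.95, −3.42, −3.68 and −4.72 in unelicited leaves, a log2 fold change of 11.46 (SE 0.36, adjusted p = 1.23e-08). The groups again did not overlap, and the unelicited slides differed little. LjMYB12a_LjMYB31, whose name is that of the MYB12 regulators of flavonol genes in Arabidopsis, gave 6.99, 6.61 and 6.71 in 3 h leaves, against −6.22, −7.07, −3.64 and −2.15 in unelicited leaves. The 3 h arrays were close together and high, while the unelicited arrays were low on both slides and lower on slide 1.

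Other leading rises were transcription factors and enzymes that unelicited leaves barely showed. LjTrihelix7, of a family of light- and stress-related DNA-binding proteins, gave 4.88, 5.05 and 5.11 in 3 h leaves, against −3.94, −3.91, −4.64 and −5.19 in unelicited leaves (log2 fold change 9.43, SE 0.36, adjusted p = 2.81e-08). LjbHLH86 and LjMYB131 were likewise low on all unelicited arrays: the first was at least 758-fold higher (adjusted p = 6.41e-09) and the second rose by 9.75 (adjusted p = 1.76e-07). For these 3 the 3 h and unelicited arrays were far apart on either slide. The size of the LjMYB131 rise is uncertain. All its unelicited signals but that of replicate 4 were below any that counted as well above background. UGT71B_LjSGA_053314.2, a glycosyltransferase, was at least 245-fold higher (adjusted p = 9.61e-08), and Dir22_chr3.CM0243.180.nc, a dirigent protein name from a class that steers the coupling of phenylpropanoid radicals, was at least 221-fold higher (adjusted p = 8.54e-08). The remaining places among the 12 largest rises went to C4H01_chr5.LjT24B10.30.nc, given with its pathway, and to factors of the ERF and NAM families. LjERF5 was at least 592-fold higher (adjusted p = 1.53e-07) and LjERF41 at least 269-fold higher (adjusted p = 3.53e-08), while LjNAM24, well above background on all arrays, rose by 9.20 (adjusted p = 4.33e-07).

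Among the largest falls, several genes were not well above background on any 3 h array. CYP94D_chr1.LjT01M20.50.nc, a P450 of a clan of fatty acid hydroxylases, gave −5.14, −5.10 and −4.86 in 3 h leaves, against 2.71, 2.89, 3.08 and 2.68 in unelicited leaves. Unelicited arrays of both slides were high and alike, and the 3 h arrays, none of them well above background, were at least 177-fold lower (adjusted p = 9.23e-08). CHR01_LjT35G18.140.nd, read here as a chalcone reductase name, was −5.34, −5.50 and −4.54 in 3 h leaves, against 4.02, 3.58, 3.73 and 3.66 in unelicited leaves. It too was evenly high in unelicited leaves, and it was at least 335-fold lower (adjusted p = 2.81e-08) at 3 h. Chalcone reductase names as a family were 2 of 4 up and 2 down: CHR04_CM1092.70.nc and CHR05_CM1092.80.nc rose by 7.56 and 7.57, or 6.25 and 6.29 on slide 2 alone, with the 3 h arrays above all others. CYP82B_LjT30J19.120.nd fell by 8.09 (SE 0.46, adjusted p = 1.92e-07), well above background on 1 of 3 arrays at 3 h, and the glycosyltransferases ugt79B12_ntc and IFLGT06_chr3.LjT14J20.170.nc were at least 57.4-fold and at least 54.6-fold lower. BGLU7_chr4.CM0126.1280.nc, a beta-glucosidase, was at least 101-fold lower (adjusted p = 2.49e-07). For each of these the unelicited arrays of both slides were well above background. Other leading falls differed in size between the slides and are given with the cyanogenic genes.

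**Figure D2:**
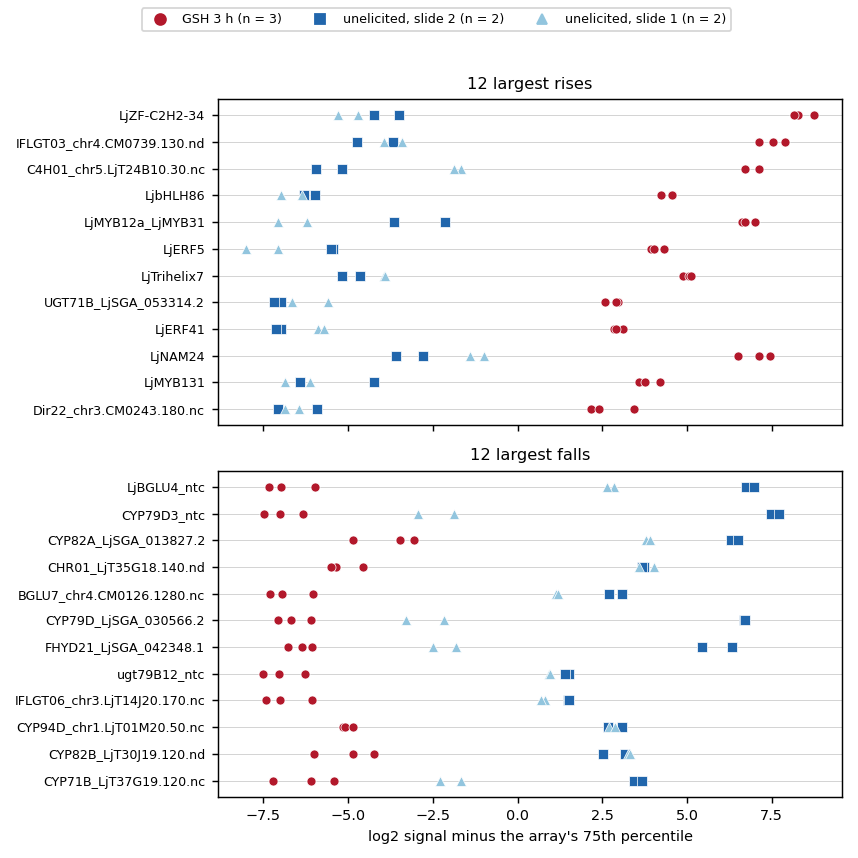
Log2 signal (minus the array's 75th percentile) on each of the 7 arrays for the 12 largest rises and the 12 largest falls, ranked by the smaller change of the 2 sets of unelicited arrays, with at most 2 per family: red circles are GSH 3 h arrays, dark blue squares unelicited arrays of slide 2 and light blue triangles unelicited arrays of slide 1. In all 24 targets the 3 h arrays are clear of the unelicited ones, which the rule for choosing them required. Dark and light blue separate widely for CYP79D3_ntc, CYP79D_LjSGA_030566.2, FHYD21_LjSGA_042348.1 and CYP71B_LjT37G19.120.nc.

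Phenylalanine ammonia-lyase (PAL), the enzyme that takes phenylalanine into the phenylpropanoid pathway, was higher in nearly every copy: 13 of 14 targets rose and 1 fell (median 4.36). The 13 that rose did so by 2.44 to 5.44. For all 13 the 3 h arrays lay above every unelicited array, as is usual for targets that passed. The copies differed in where they started. PAL06_chr1.CM0033.960.nc gave 8.18, 8.41 and 8.18 in 3 h leaves, against 4.60, 4.69, 4.90 and 5.06 in unelicited leaves (log2 fold change 3.44, SE 0.24, adjusted p = 6.57e-07). After quantile normalization its change was 0.31 and did not pass, and PAL names were then 10 up and 1 down. It was already bright in unelicited leaves on both slides. PAL11_LjSGA_032104.2 gave −0.31, −0.03 and −0.28 in 3 h leaves, against −3.15, −3.06, −6.98 and −6.30 in unelicited leaves, and PAL13_LjSGA_011258.1 −0.34, −0.36 and −0.62 in 3 h leaves, against −3.11, −3.45, −7.02 and −5.13 in unelicited leaves. Both were near the detection limit on slide 2 and higher on slide 1 before elicitation. The steepest log2 change was that of PAL12_LjSGA_102693.1, at 5.44 (SE 0.35). PAL09_chr5.LjT17D03.50.nd was the one exception, at −0.73, −1.11 and −1.18 in 3 h leaves, against 3.88, 3.80, 1.98 and 2.75 in unelicited leaves, lower on every 3 h array.

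Cinnamate 4-hydroxylase, the second enzyme, rose in all 6 tested targets carrying C4H or CYP73A names, by 4.16 to 10.59 on the probes used. The rise of 4.16 was 3.525 on its other probe, and a rise of 8.76 was at least 2764-fold on its other probe. A pair of the targets was almost the same array by array, so the 6 rises cannot be taken as 6 separate genes. C4H01_chr5.LjT24B10.30.nc, also listed as CYP73A, gave 6.71 and 7.13 in 3 h leaves, against −1.67, −1.86, −5.95 and −5.18 in unelicited leaves, with 1 spot at 3 h left out as an outlier (log2 fold change 10.59, SE 1.16, adjusted p = 2.91e-05). Its unelicited signals on slide 1 were clearly above those on slide 2, where it was not well above background, so on slide 2 alone the rise was at least 3678-fold. No unelicited array measured its other probe, which was at least 340.4-fold higher with all 4. CYP73A_LjSGA_031602.1 gave 8.62, 8.93 and 9.21 in 3 h leaves, against 4.79, 4.95, 4.85 and 4.46 in unelicited leaves (log2 fold change 4.16, SE 0.26, adjusted p = 3.61e-07), bright before elicitation and alike on both slides, though the change was 1.04 and did not pass after quantile normalization. Coumarate ligase names (CoumLig), for the enzyme that activates coumarate with coenzyme A, went both ways: 7 of 15 targets rose and 5 fell, or 5 and 8 scaled on the probes measured on all arrays (median −0.49, and 0.08 on slide 2 alone). CoumLig16_chr6.CM0057.160.nc and CoumLig1_chr2.CM0018.1240.nc rose by 5.80 and 5.74, and CoumLig18_LjSGA_075474.1 fell by 2.16 (adjusted p = 1.14e-04). The 7 that rose ranged from 1.12 to 5.80 and the 5 that fell from −2.16 to −0.67. On slide 2 alone 7 rose and 3 fell. The target that rose by 1.59 had another probe that passed in the opposite direction, at −1.42.

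Chalcone synthase (CHS), which builds the chalcone skeleton, was represented by 26 tested targets, of which 17 rose and 6 fell (median 5.55, and 4.50 on slide 2 alone). On the probes used the rises were alike in size, 4.80 to 6.96. For 17 of 17 the groups did not overlap, as is usual for targets that passed. Other probes could differ: the smallest rise was 1.85 on its other probe, and a rise of 5.88 was 8.47. CHS14_chr2.CM0018.1100.nc gave 9.18, 9.06 and 9.24 in 3 h leaves, against 2.40, 2.40, 4.0 and 5.19 in unelicited leaves, and CHS12_chr1.CM0284.240.nc, a name from another chromosome, 9.15, 9.09 and 9.44 in 3 h leaves, against 2.51, 2.72, 4.17 and 5.26 in unelicited leaves. Array by array the pair is almost the same, so probes for near-identical CHS copies may read each other's transcripts and the 17 rises cannot be taken as 17 separate genes. Unelicited signals were higher on slide 2 than on slide 1 in both. CHS03_chr3.CM0216.300.nc, on another clone, gave 8.11, 7.79 and 8.41 in 3 h leaves, against 0.37, 1.40 and 1.65 in unelicited leaves, with 1 unelicited spot left out as an outlier (log2 fold change 6.96, SE 0.39, adjusted p = 3.77e-07).

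The CHS names that fell had their own levels. A fall of 5.37 was −0.92 on the target's other probe, which did not pass. CHS04_chr2.CM0903.140.nd gave −2.33, −2.19 and −2.30 in 3 h leaves, against 3.25, 2.83, 3.08 and 3.27 in unelicited leaves (log2 fold change −5.38, SE 0.96, adjusted p = 5.22e-04), with the unelicited slides alike. CHS26_LjSGA_120506.1 gave 1.57, 1.24 and 1.81 in 3 h leaves, against 5.0, 5.13 and 7.88 in unelicited leaves, with 1 unelicited spot left out as an outlier, brightest on the unelicited array of slide 2. CHS05_chr1.CM0178.460.nc and CHS07_chr3.CM0091.780.nd differed by 0.09 and 0.47 and did not pass. Scaled on the probes measured on all arrays, both passed as lower, at −0.97 and −0.60. With the slide as a block CHS07_chr3.CM0091.780.nd passed as higher, at 0.53. The names read as polyketide reductase (PKR), an enzyme that works beside CHS to make the deoxychalcones of legumes, rose in all 5 tested targets. The rises were almost equal, 6.52 to 6.67. Chalcone reductase (CHR) names, given above as a family of their own, were 2 of 4 up and 2 down. PKR3_chr2.CM0191.480.nc gave 7.70, 8.15 and 8.34 in 3 h leaves, against 1.49, 1.13, 1.19 and 1.79 in unelicited leaves (log2 fold change 6.67, SE 0.30, adjusted p = 5.64e-08). In unelicited leaves PKR names were alike on both slides, with a median of −0.08 for slide 2 minus slide 1 beside 1.74 for CHS names.

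Chalcone isomerase (CHI), which closes the chalcone ring, was counted in 6 targets: 1 of 6 targets rose and 2 fell (median −0.64, and −1.87 on slide 2 alone), and on slide 2 alone 1 rose and 5 fell, while with normexp background correction 1 rose and 1 fell. CHI06_chr5.CM0034.130.nc gave 4.56, 4.68 and 5.01 in 3 h leaves, against 0.52, 0.53, 0.38 and 0.55 in unelicited leaves (log2 fold change 4.26, SE 0.28, adjusted p = 4.09e-07). All 3 h arrays stood well above the unelicited ones, which were even. CHI02_chr5.CM0260.390.nc gave 2.57, 3.50 and 2.88 in 3 h leaves, against 1.99, 2.38, 4.85 and 5.52 in unelicited leaves. Here the 3 h arrays fell between the 2 unelicited slides, so this probe did not pass with all 4 (adjusted p = 0.456) and was lower by 2.20 on slide 2 alone (adjusted p = 0.00386). Its other probe fell by 1.17 and passed with all 4. CHI01_ and CHI03_chr5.CM0260.370.nc also lay between the slides and passed as lower on slide 2 alone. CHI05_LjSGA_035547.1 fell in both sets, by 3.80 with all 4, but its change was −1.0 and did not pass with normexp background correction.

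Downstream, the enzyme names of the isoflavonoid branch, which holds the route to vestitol, were mostly higher. Of 33 targets 22 were up and 8 down, or 20 and 9 on slide 2 alone. CYP93C17_LjT24P23.50.nc, an isoflavone synthase name, gave 7.25, 7.93 and 7.91 in 3 h leaves, against 3.05, 3.39, 5.37 and 5.87 in unelicited leaves, a log2 fold change of 3.28, or 2.08 on slide 2 alone, and 0.59, not past the threshold, after quantile normalization. CYP93C_LjSGA_087856.1 gave 3.90, 4.93 and 5.11 in 3 h leaves, against 0.20, 0.13, −0.30 and 0.02 in unelicited leaves (log2 fold change 4.64, SE 0.34, adjusted p = 8.75e-07). The 3 h arrays were above all unelicited arrays in both, and only the first depended on the slide. The 2-hydroxyisoflavanone dehydratase (HID) names, for the step after isoflavone synthase, were 2 of 5 up and 3 down: HID3 gave 7.25, 7.38 and 7.27 in 3 h leaves, against 2.20, 2.14, 3.95 and 3.87 in unelicited leaves, whereas HID4_LjB01D01.90.nc gave −2.09, −1.95 and −2.56 in 3 h leaves, against 1.06, 1.26, 2.49 and 2.40 in unelicited leaves. Neither overlapped between the groups, and the rise of HID3 was 3.39 on slide 2 alone. Of the names read as 4'-methyltransferase, 4Meth1_LjT24P23.70.nc, whose clone is that of CYP93C17, gave 9.55, 9.50 and 9.98 in 3 h leaves, against 3.31, 3.59, 5.65 and 5.92 in unelicited leaves (log2 fold change 5.06, SE 0.63, adjusted p = 3.80e-05; 3.89 against slide 2), and 4Meth5_LjT16L08.70.nd moved alike.

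Isoflavone 2'-hydroxylases, for the hydroxylation before the reductases, carry I2H or CYP81E names. I2H names were 2 of 3 up and 1 down, or 1 and 1 after quantile normalization. CYP81 names were 2 of 3 up and 1 down, also after quantile normalization. The lowest change was −2.05 in both lists, which overlap. CYP81E6_ntc gave 7.50, 8.30 and 8.26 in 3 h leaves, against 0.57, 1.02, 4.12 and 4.53 in unelicited leaves, a rise of 5.46, or 3.70 on slide 2, while CYP81ELT_1_ntc gave 6.39, 6.81 and 7.32 in 3 h leaves, against 1.75, 1.86, 0.60 and 0.45 in unelicited leaves, a rise of 5.67, or 6.31 on slide 2. In both the 3 h arrays lay above all others, with the higher unelicited signals on opposite slides. I2H1_chr2.CM0250.70.nc fell by 2.05 (SE 0.29, adjusted p = 1.13e-04), though its change was −0.99 and did not pass with normexp background correction.

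Among the last steps, isoflavone reductase (IFR) names were 4 of 6 up and 1 down. IFR6_chr2.CM0249.1070.nc gave 9.81, 9.98 and 10.11 in 3 h leaves, against 1.79, 2.0, 7.44 and 6.96 in unelicited leaves. Its unelicited level was much higher on slide 2, and its change was 5.42 with all 4 arrays and 2.77 on slide 2. With all 4 it was 3.25 and did not pass after quantile normalization. IFR4_ gave 2.12, 1.94 and 2.43 in 3 h leaves, against −1.74, −1.52, −1.50 and −1.01 in unelicited leaves (log2 fold change 3.60, SE 0.54, adjusted p = 1.59e-04), the same on either slide. VR1_chr1.CM1255.320.nc, read as vestitone reductase, gave 9.16, 9.27 and 9.36 in 3 h leaves, against 1.64, 1.72, 5.01 and 5.93 in unelicited leaves, a rise of 5.69, or 3.79 on slide 2. VR2_chr1.CM0017.190.nc fell instead, by 3.32 (SE 0.27, adjusted p = 1.85e-06). The pterocarpan reductase name PTR3_chr3.CM0216.20.nd gave 3.85, 4.91 and 3.90 in 3 h leaves, against −1.25, −1.13, −0.09 and 1.19 in unelicited leaves (log2 fold change 4.54, SE 0.56, adjusted p = 3.92e-05), with every 3 h array higher. Names read as 7-methyltransferase were 2 of 5 up and 1 down, or 1 and 2 on slide 2 alone, when scaled on the probes measured on all arrays, and with spike-in scaling on slide 2. Among them 7Methyl8_LjSGA_093653.2 rose by 6.21 and 7Methyl7_LjSGA_061523.2 fell by 4.86 (adjusted p = 1.32e-06).

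**Figure D3:**
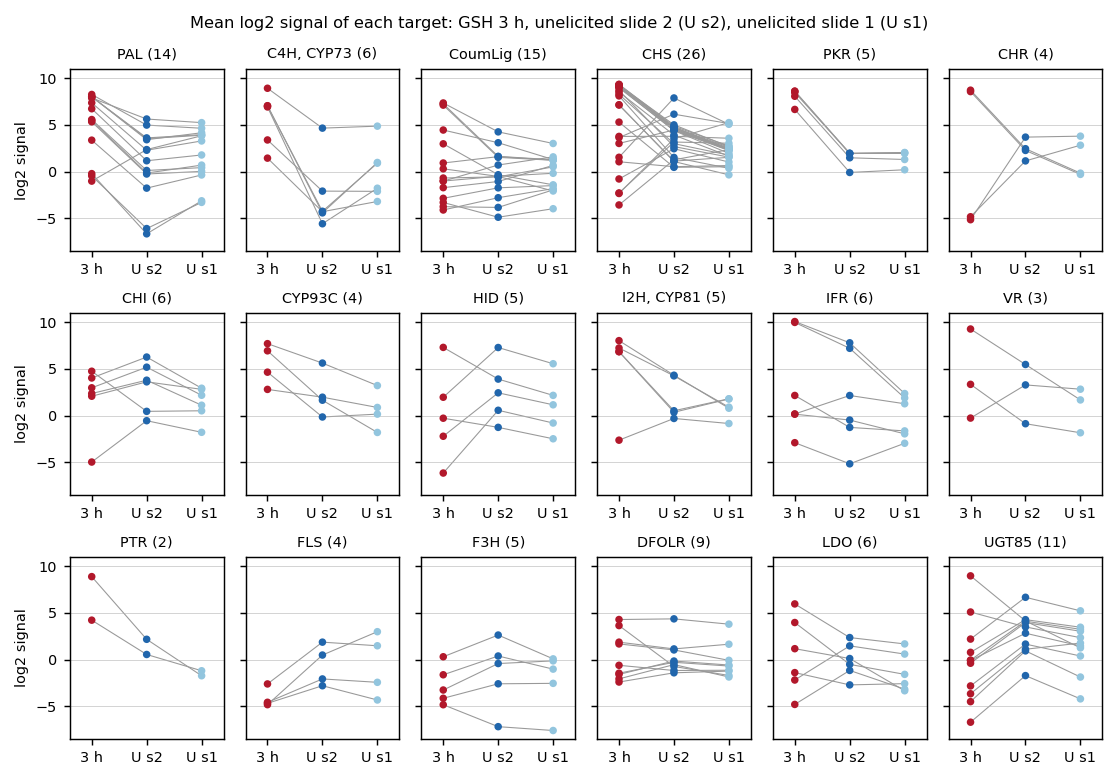
Mean log2 signal of each tested target (points joined by a line) in GSH 3 h leaves, in unelicited leaves on slide 2 (U s2) and on slide 1 (U s1), by enzyme name along phenylpropanoid, isoflavonoid and flavonoid metabolism, with UGT85 names of cyanogenic glucoside synthesis last and the number of targets drawn in brackets. PAL, C4H and PKR lines run down from 3 h to both unelicited sets apart from 1 PAL name, CHS and HID names go both ways, and FLS names are all lower at 3 h than on slide 2.

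The flavonol, anthocyanidin and tannin branches, which draw on the same precursors, held more falls than rises: 8 of 28 targets rose and 13 fell, or 6 and 4 with normexp background correction (median −1.02). Flavonol synthase (FLS) names were 0 of 4 up and 3 down. FLS03_chr4.CM0536.220.nd gave −2.80, −2.52 and −2.47 in 3 h leaves, against 1.53, 1.44, 1.74 and 2.0 in unelicited leaves (log2 fold change −4.27, SE 0.29, adjusted p = 5.00e-07), lower at 3 h on every array and alike on both unelicited slides. FLS02_chr1.LjB17A22.120.nc gave −4.50, −4.39 and −5.54 in 3 h leaves, against 3.12, 2.86, 0.34 and 0.65 in unelicited leaves, again without overlap. Flavanone 3-hydroxylase (F3H) names were 1 of 5 up and 3 down, and the 1 rise, of F3H01_chr3.CM0208.350.nc, rested on 1 array, with signals of −6.61, −1.57 and −6.28 in 3 h leaves, against −8.07, −7.08, −7.08 and −7.25 in unelicited leaves. Only replicate 2 was well above background there, and without it the rise was 0.92 and did not pass, nor did it pass with only the 7 arrays compared. F3H08_LjSGA_039470.1 fell by 2.97 (SE 0.33, adjusted p = 1.97e-05).

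Names read as dihydroflavonol reductase (DFOLR) were 2 of 9 up and 3 down, or 2 and 1 quantile-normalized, 1 and 0 with normexp background correction. DFOLR08_chr1.CM1255.280.nc gave 3.68, 3.97 and 3.27 in 3 h leaves, against −1.84, −1.54, −1.12 and −0.34 in unelicited leaves (log2 fold change 4.85, SE 0.40, adjusted p = 4.14e-06). Names read as leucoanthocyanidin dioxygenase (LDO) were 4 of 6 up and 2 down, or 2 and 2 scaled on the probes measured on all arrays. LDO01_chr2.CM0002.400.nc gave 5.95, 5.65 and 6.27 in 3 h leaves, against 1.75, 1.61, 2.47 and 2.25 in unelicited leaves, and LDO03_chr6.CM0302.250.nd gave −2.66, −1.53 and −2.33 in 3 h leaves, against 0.84, 0.35, 1.47 and 1.47 in unelicited leaves. Their groups were apart in opposite directions. The P450 names of flavonoid B-ring hydroxylation went both ways, CYP75BLT_3_ntc being at least 21.3-fold higher (adjusted p = 1.85e-07) and CYP75A_LT_ntc at least 8.76-fold lower (adjusted p = 9.16e-07), the second not passing with normexp background correction (−0.86).

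Dirigent names were 7 of 10 up and 2 down (median 2.60). Dir11_LjSGA_033937.1 gave 7.72, 8.41 and 8.94 in 3 h leaves, against −1.46, −1.58, 0.12 and 0.16 in unelicited leaves (log2 fold change 9.05, SE 0.52, adjusted p = 2.03e-07), and Dir09_LjSGA_018029.2 gave −4.68, −4.69 and −5.18 in 3 h leaves, against 1.39, 1.88, 1.23 and 0.74 in unelicited leaves, with 2 of 3 arrays well above background at 3 h. The first was high and the second low on every 3 h array. Laccase names (LAC), read as the copper oxidases that polymerise lignin, were 1 of 6 up and 4 down, LAC07_chr2.CM0249.1210.nc being at least 11.1-fold lower (adjusted p = 1.36e-06). With normexp background correction 0 laccase names rose and 0 fell, and LAC07_chr2.CM0249.1210.nc did not pass (−1.12). Of 28 laccase targets on the array only 6 were bright enough to test.

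Glycosyltransferases, which attach sugars to small molecules, were split as a class, with 60 of 150 up and 65 down, or 52 and 26 with normexp background correction (median −0.15), and single families leaned one way. UGT71 names, a family with flavonoid glucosyltransferases in Medicago, were 14 of 23 up and 7 down (median 2.57, or 2.17 with dim members held at their bounds). UGT71B_LjSGA_016571.1 gave 4.31, 4.08 and 4.55 in 3 h leaves, against −3.94, −4.03, −5.72 and −4.58 in unelicited leaves, far apart on both slides. Its log2 fold change was 8.88 (SE 0.41, adjusted p = 6.61e-08). That size is less certain, as unelicited replicate 3 lay below any signal that counted as well above background. UGT71B_LjSGA_011402.3 was at least 12.8-fold lower (adjusted p = 6.59e-05), but did not pass with normexp background correction (−1.08). UGT90 names were 4 of 6 up and 1 down and UGT92 names 3 of 6 up and 1 down. UGT92A_LjT44J06.210.nd gave 3.06, 3.69 and 4.13 in 3 h leaves, against −2.28, −2.72, −4.16 and −4.66 in unelicited leaves, a rise of 7.08 on this probe and 3.12 on its other probe. UGT90A_chr2.CM0124.40.nc fell against the rest of its family, by 3.74 (SE 0.36).

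UGT91 names stood at the other extreme: 0 of 10 targets rose and 10 fell (median −3.93, or −2.68 with dim members held at their bounds). For all 10 the 3 h arrays lay below every unelicited array, as is usual for targets that passed. Of the 10, 7 were not well above background on any 3 h array, and with normexp background correction 3 fell. UGT91H_LjSGA_096934.1 gave −6.37, −5.67 and −6.31 in 3 h leaves, against 1.81, 1.74, 0.70 and 0.87 in unelicited leaves, not well above background on any 3 h array and at least 60.6-fold lower (adjusted p = 8.54e-08). UGT78 names, a family of flavonol and anthocyanidin glycosyltransferases, were 0 of 4 up and 3 down, or 0 and 1 with normexp background correction. Of the 4, 3 were not well above background on any 3 h array. UGT73 names were 15 of 32 up and 8 down, or 8 and 11 scaled on the probes measured on all arrays. Among them the 2 that also carry FOLGT names, FOLGT02_chr1.CM0088.150.nd and FOLGT01_chr1.CM0591.430.nd, rose by 5.83 and 5.67, or 6.82 and 6.79 on slide 2 alone. UGT73B_LjSGA_071841.2 fell by 5.17 (adjusted p = 1.44e-04).

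UGT74 names, a family with salicylate and auxin glucosyltransferases in Arabidopsis, were 9 of 17 up and 6 down. UGT74K_LjT17C09.130.nc gave 4.64, 5.07 and 5.27 in 3 h leaves, against 1.51, 1.15, −0.90 and −1.13 in unelicited leaves, and ugt74K1_ntc gave −0.97, −1.50 and −1.45 in 3 h leaves, against 4.12, 3.90, 3.94 and 4.13 in unelicited leaves. Members of one family thus moved by 4.83 and −5.33, each without overlap between groups. UGT83 names were 6 of 10 up and 3 down, or 4 and 4 scaled on the probes measured on all arrays, 3 and 4 with spike-in scaling on slide 2, with UGT83G_chr3.LjT24D06.90.nd up by 5.0 and UGT83A_LjT15N18.90.nd, the steepest fall, at −6.17 (SE 0.44). The membrane lipid families UGT80, sterol glucosyltransferases, and UGT81, galactolipid synthases of the plastid, both held more falls. UGT80 names were 1 of 7 up and 4 down, or 1 and 0 with normexp background correction. UGT81 names were 1 of 7 up and 5 down, or 1 and 0 with spike-in scaling on slide 2. UGT81A_LjSGA_083752.1 gave 0.08, 0.07 and −0.40 in 3 h leaves, against 1.54, 1.30, 1.28 and 1.0 in unelicited leaves (adjusted p = 6.86e-04), a small fall that was even across arrays and did not pass with spike-in scaling on slide 2.

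Cytochrome P450s were lower far more often than higher, 47 of 194 up and 110 down (median −1.69, or −1.54 with dim members held at their bounds), or 38 and 69 with normexp background correction, and a few families ran against that. CYP706 names fell in all 6 tested targets, by 3.59 to 4.20 for the 5 measured at 3 h. CYP706A_LjSGA_035363.1 gave −4.90, −4.99 and −5.05 in 3 h leaves, against 1.15, 1.13, 1.25 and 1.85 in unelicited leaves, at least 61.3-fold lower, with unelicited slides alike. CYP716 names, a family of triterpene oxidases in Medicago, fell in all 3 tested targets, and CYP78 and CYP97 names, the second of which hydroxylate carotenoids, in 3 of 3 each. With normexp background correction 2 CYP716, 1 CYP78 and 2 CYP97 names fell. CYP83 names were 4 of 13 up and 4 down, or 1 up and 6 down on slide 2 alone, and CYP72 names 3 of 11 up and 6 down. CYP72A_LjSGA_103610.1.1 gave −0.44, 0.42 and 0.07 in 3 h leaves, against 3.72, 3.51, 3.79 and 3.46 in unelicited leaves (log2 fold change −3.60, SE 0.27, adjusted p = 1.20e-06), low at 3 h on every array.

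CYP94 names, a family that includes the enzymes that oxidise and inactivate the jasmonate hormone in Arabidopsis, rose in 8 of 10 tested targets and fell in 1 (median 3.97, or 2.64 with dim members held at their bounds). CYP94A_chr1.CM0375.290.nd gave 7.51, 7.99 and 8.44 in 3 h leaves, against 1.43, 1.71, 1.07 and 0.50 in unelicited leaves (log2 fold change 6.80, SE 0.36, adjusted p = 1.15e-07). CYP94C_LjT01G11.220.nd was below the measured range on all unelicited arrays and at least 107.2-fold higher (adjusted p = 1.37e-08). Both were clearly higher on all 3 h arrays. CYP74 names, P450s that work on fatty acid hydroperoxides, were 1 of 6 up and 3 down: CYP74A_chr5.CM0089.580.nd, a subfamily of allene oxide synthases on the route to jasmonate, gave 7.30, 7.64 and 7.68 in 3 h leaves, against 3.64, 3.85, 6.58 and 5.95 in unelicited leaves, and CYP74B_chr3.CM0196.320.nc, a subfamily of hydroperoxide lyases, gave 2.51, 2.41 and 2.05 in 3 h leaves, against 4.92, 5.0, 5.90 and 5.91 in unelicited leaves. The first rose by 2.53 (−0.26 after quantile normalization and 1.47 scaled on the probes measured on all arrays, neither past the threshold) and the second fell by 3.11, with no overlap in either. CYP710 names, sterol desaturases in Arabidopsis, rose in all 3 tested targets, by 3.90 to 6.30.

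P450s of the brassinosteroid families were 0 of 12 up and 11 down and those of the gibberellin families 0 of 12 up and 9 down, or 0 and 5, and 0 and 4, with normexp background correction. CYP88A_LjSGA_103858.1, of the gibberellin pathway, gave 0.31, −2.54 and 0.38 in 3 h leaves, against 1.97, 1.72, 3.75 and 3.34 in unelicited leaves. The 3 h replicates were uneven here, with replicate 2 well below the others. CYP707 names, which break down abscisic acid, were 2 of 3 up and 0 down. Only 3 of 8 CYP707 targets could be tested.

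Several genes of cyanogenic glucoside synthesis changed by amounts that depended on which unelicited arrays were used. CYP79D3_ntc, which in Lotus catalyses the first step from amino acid to oxime, gave −6.99, −7.46 and −6.33 in 3 h leaves, against −1.86, −2.93, 7.46 and 7.70 in unelicited leaves. It was bright on unelicited arrays of slide 2, much lower though well above background on those of slide 1, and not well above background on any 3 h array. It was at least 150.4-fold lower at 3 h with all 4 unelicited arrays and at least 4776-fold lower on slide 2 alone. CYP736A2_ntc, the next enzyme, gave −0.41, −0.85 and −0.92 in 3 h leaves, against −0.64, −1.48, 5.62 and 6.0 in unelicited leaves. At 3 h it overlapped the unelicited arrays of slide 1 and lay far below those of slide 2, so it did not pass with all 4 (adjusted p = 0.123) and fell by 6.53 on slide 2 alone (adjusted p = 4.58e-06). These genes lie together in a cluster in the Lotus genome. A P450 whose name carries chromosome 3 and clone CM0241, CYP71A_chr3.CM0241.540.nd, followed them at −1.21, −2.66 and −1.93 in 3 h leaves, against 0.01, −0.34, 5.97 and 6.71 in unelicited leaves.

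UGT85 names, the family of the glucosyltransferase that finishes cyanogenic glucosides, were 2 of 11 up and 9 down, and the 9 falls ran from 2.23 to 5.09 on the log2 scale. UGT85J_chr3.CM0241.610.nc, of the same clone as the P450 above, gave 0.01, −0.37 and −0.79 in 3 h leaves, against 3.24, 2.83, 3.26 and 4.66 in unelicited leaves (log2 fold change −3.88, SE 0.44, adjusted p = 2.09e-05). Unlike the P450s it was about as bright on both unelicited slides. UGT85J_LjSGA_013948.3 gave 0.10, −0.21 and −0.04 in 3 h leaves, against 3.27, 3.21, 4.07 and 4.14 in unelicited leaves, low at 3 h throughout. UGT85J_LjSGA_028537.1 rose by 2.17 (adjusted p = 3.80e-04), or 0.39, not past the threshold, after quantile normalization. Its other probe gave 4.12 and did not pass.

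Further P450 names shared the slide pattern. FHYD21_LjSGA_042348.1, also listed as CYP71A, gave −6.77, −6.35 and −6.07 in 3 h leaves, against −1.80, −2.48, 5.44 and 6.33 in unelicited leaves, and FHYD08_LjT37G19.90.nc gave −0.48, −1.12 and −0.91 in 3 h leaves, against −0.69, −1.22, 5.60 and 6.11 in unelicited leaves. CYP71B_LjT37G19.120.nc, of the same clone as the second, was at least 292-fold lower on slide 2 and at least 42.9-fold lower with all 4. All 3 were bright on the unelicited arrays of slide 2 and far lower, though well above background, on those of slide 1. Without 3 h replicate 2, CYP71A_chr3.CM0241.540.nd no longer passed with all 4. CYP71 names as a family were 2 of 17 up and 11 down (median −4.52, or −2.96 with dim members held at their bounds), and FHYD names 5 of 18 up and 10 down. Against the family, CYP71D_LjSGA_064078.0.1 gave 1.93, 1.25 and 1.24 in 3 h leaves, against −7.84, −4.63, −7.12 and −7.29 in unelicited leaves (log2 fold change 8.19, SE 0.78, adjusted p = 5.97e-06). It was well above background on only 1 unelicited array, so the size of that change is uncertain. On slide 2 alone it was at least 84.1-fold higher. LjbHLH5, a transcription factor, gave −3.17, −3.14 and −5.74 in 3 h leaves, against −6.97, −6.78, 2.58 and 2.28 in unelicited leaves, bright on unelicited slide 2 and, unlike the P450s, not well above background on slide 1. LjERF13 and LjZF-C2H2-36_est had the reverse pattern, at 1.84, 2.72 and 2.10 in 3 h leaves, against −0.92, −0.13, −7.06 and −6.23 in unelicited leaves for the first.

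Over all targets, 318 of 1970 had mean unelicited signals more than 2 apart between the slides, 143 of them higher on slide 2 and 175 higher on slide 1. Whether plants, harvest, labelling or hybridisation differed between these arrays was not tested. Beta-glucosidases, which release the cyanide precursor from its sugar, were 11 of 38 up and 23 down, and BGLU6_chr4.LjT10E08.20.nc ran against the family at 1.09, 1.05 and 1.35 in 3 h leaves, against −4.63, −4.17, −3.93 and −4.50 in unelicited leaves. LjBGLU4_ntc gave −6.96, −7.33 and −5.96 in 3 h leaves, against 2.85, 2.64, 6.74 and 6.97 in unelicited leaves. No 3 h array measured it, which made it at least 695-fold lower (adjusted p = 4.08e-06). It was far brighter on unelicited slide 2 than on slide 1, and against slide 2 alone the bound was 2882-fold. Another target with a BGLU4 name, of other sequence, went the other way. It was not well above background on any unelicited array and was at least 28.4-fold higher at 3 h. Nitrilase names (NIT), whose NIT4 members in Arabidopsis convert the cyanide product cyanoalanine, were 7 of 11 up and 1 down, or 2 and 2 scaled on the probes measured on all arrays, 4 and 3 after quantile normalization and 3 and 2 with spike-in scaling on slide 2. NIT02_chr4.CM0100.80.nc gave 5.01, 5.33 and 5.47 in 3 h leaves, against 2.26, 2.25, 2.47 and 2.62 in unelicited leaves (log2 fold change 2.87, SE 0.26, adjusted p = 4.16e-06), higher on each 3 h array. Names read as cyanoalanine synthase (cyala) were 1 of 6 up and 2 down.

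**Figure D4:**
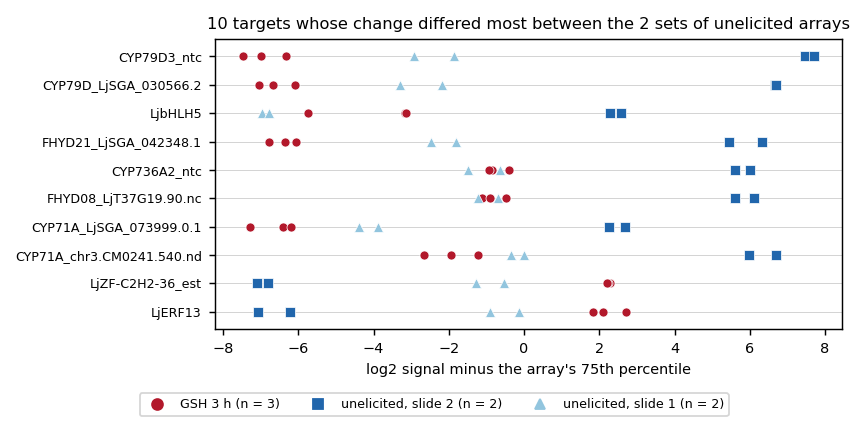
Log2 signal on each array for the 10 targets whose change differed most between all 4 unelicited arrays and slide 2 alone: red circles are GSH 3 h arrays, dark blue squares unelicited arrays of slide 2 and light blue triangles unelicited arrays of slide 1. For the upper 8 the slide 2 squares lie far to the right of all other points, and for LjZF-C2H2-36_est and LjERF13 far to the left.

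Turning to regulators, the largest family was the C3HC4 RING fingers, most of which are ubiquitin ligases that mark proteins for breakdown. Of 230 tested targets 87 rose and 67 fell, but 48 and 106 scaled on the probes measured on all arrays, 69 and 73 after quantile normalization and 58 and 59 with spike-in scaling on slide 2. Single members moved strongly. LjZF-C3HC4-68 gave 6.73, 7.21 and 7.16 in 3 h leaves, against −0.67, −1.67, −1.53 and −1.24 in unelicited leaves (log2 fold change 8.31, SE 0.37, adjusted p = 5.28e-08). LjZF-C3HC4-18 gave −5.11, −5.97 and −6.21 in 3 h leaves, against 0.33, 0.21, 0.24 and 0.14 in unelicited leaves and was at least 29.2-fold lower (adjusted p = 2.32e-06). The groups were wide apart in both.

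MYB factors, which in plants include the direct regulators of phenylpropanoid genes, differed by subgroup. Names of the main MYB group were 35 of 75 up and 26 down, or 30 and 33 scaled on the probes measured on all arrays (median 1.0). LjMYB131 gave 4.21, 3.57 and 3.76 in 3 h leaves, against −6.12, −6.85, −6.41 and −4.22 in unelicited leaves, and LjMYB93 gave −4.11, −4.07 and −3.10 in 3 h leaves, against 2.63, 2.81, 1.36 and 1.30 in unelicited leaves (log2 fold change −5.78, SE 0.63, adjusted p = 1.63e-05). Each had its 3 h arrays clear of the unelicited ones, in opposite directions. The group called MYBother was 20 of 41 up and 5 down, or 5 and 12 scaled on the probes measured on all arrays, led by LjMYBother35 at 5.78, 5.77 and 5.83 in 3 h leaves, against 1.38, 1.24, 2.97 and 2.63 in unelicited leaves. SHAQKY-type MYBs, a single-repeat class that in Arabidopsis includes clock proteins, fell in 11 of 18 and rose in 2 (median −2.14). LjMYB-SHAQKY2 gave −6.98, −6.17 and −6.11 in 3 h leaves, against 4.98, 4.95, −0.17 and 0.19 in unelicited leaves. It was far brighter on unelicited slide 1 than on slide 2 and not well above background on any 3 h array. It was at least 139.7-fold lower, or at least 25.1-fold on slide 2 alone. LjMYB-SHAQKY4_est, even across unelicited arrays, was at least 18.9-fold lower (adjusted p = 3.18e-06). The time of day of sampling is not given in the sources used here. GARP factors of the G2-like type were 10 of 32 up and 6 down, or 6 and 18 scaled on the probes measured on all arrays, with LjMYB-GARP-G2-like4 up by 5.01.

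YABBY factors, which set the upper and lower faces of a leaf, fell in all 6 tested targets, by 1.56 to 2.03 for the 4 measured at 3 h. The falls were 5 on slide 2 alone, 3 after quantile normalization and 1 with normexp background correction. LjZF-C2C2-YABBY2 gave −0.92, −1.62 and −1.87 in 3 h leaves, against 0.68, 0.66, 0.24 and 0.66 in unelicited leaves (log2 fold change −2.03, SE 0.28, adjusted p = 9.33e-05), low at 3 h on every array. SBP factors, which time phase changes, were 2 of 12 up and 7 down, or 0 and 1 with normexp background correction, and TCP factors, growth regulators of leaf cells, 4 of 23 up and 10 down (median −1.06, and 0.14 on slide 2 alone). LjTCP11 gave −4.82, −5.59 and −4.98 in 3 h leaves, against −1.60, −1.20, 0.28 and 0.03 in unelicited leaves, at least 16.2-fold lower, whereas LjTCP14 gave 3.04, 2.72 and 2.66 in 3 h leaves, against −0.36, −0.17, 0.29 and 0.07 in unelicited leaves (log2 fold change 2.85, SE 0.27, adjusted p = 5.46e-06). Each separated the groups, in opposite directions.

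AP2-like factors were 2 of 12 up and 7 down, B3-domain factors 7 of 43 up and 19 down and the auxin response factors of the ARF name 0 of 8 up and 6 down, with 2, 9 and 3 down with normexp background correction. LjB3-44 gave −5.18, −5.36 and −4.98 in 3 h leaves, against 1.10, 1.03, 0.85 and 0.60 in unelicited leaves, at least 46.4-fold lower, and LjB3-8 gave 6.86, 6.97 and 7.10 in 3 h leaves, against 5.31, 5.60, 5.22 and 4.83 in unelicited leaves (log2 fold change 1.74, SE 0.26, adjusted p = 1.38e-04). The first left the measured range on all 3 h arrays. The second, already bright, was a little higher on each, though its change was −1.41 after quantile normalization. LjARF10 fell by 3.22 (SE 0.34, adjusted p = 1.34e-05), or by 0.85, not past the threshold, with normexp background correction. AUX-IAA repressors, which hold ARF proteins in check, were 7 of 33 up and 19 down, and LjAUX-IAA3 ran the other way at 6.40, 6.84 and 7.06 in 3 h leaves, against 4.19, 4.09, 2.94 and 2.56 in unelicited leaves (log2 fold change 3.32, SE 0.42, adjusted p = 4.59e-05), with every 3 h array higher, though its change was 0.77 and did not pass after quantile normalization. GATA factors were 7 of 19 up and 7 down, or 1 and 10 scaled on the probes measured on all arrays, and MADS-box factors, largely known from flowers, 6 of 18 up and 6 down with 18 of 98 targets bright enough to test.

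GRAS factors, the family of the DELLA growth repressors, were 14 of 39 up and 13 down, or 7 and 19 scaled on the probes measured on all arrays, 11 and 14 quantile-normalized, with medians of −0.04 and of 1.0 on slide 2 alone. LjGRAS37 gave 1.62, 1.29 and 1.58 in 3 h leaves, against −4.70, −5.44, −6.16 and −6.28 in unelicited leaves (log2 fold change 7.14, SE 0.40, adjusted p = 1.67e-07), and LjGRAS8 gave −2.74, −2.77 and −2.47 in 3 h leaves, against 1.38, 1.64, 2.16 and 1.55 in unelicited leaves (log2 fold change −4.34, SE 0.37, adjusted p = 2.91e-06). LjGRAS17 was not well above background on any unelicited array and was at least 46.7-fold higher (adjusted p = 2.81e-08). All 3 were separated on both slides. The size of the LjGRAS37 rise is uncertain. All its unelicited signals but that of replicate 1 were below any that counted as well above background. Homeodomain factors of the HD name were 10 of 59 up and 32 down, or 4 and 18 with normexp background correction, while the PHD fingers listed as HD-PHD, which read marks on histones, were 27 of 63 up and 7 down, or 4 and 23 scaled on the probes measured on all arrays. The changes of that second family were small, and LjHD-PHD39 was among its larger ones at 2.16, 2.22 and 2.47 in 3 h leaves, against 0.21, 0.18, 0.41 and 0.56 in unelicited leaves (log2 fold change 1.94, SE 0.28, adjusted p = 1.33e-04). LjHD19 rose against its family, at 2.77, 2.37 and 2.87 in 3 h leaves, against −5.18, −6.78, −4.98 and −4.77 in unelicited leaves. Its log2 fold change was 8.10 (SE 0.49, adjusted p = 2.75e-07). The size of that rise is uncertain, as unelicited replicates 2 and 3 gave signals below any that counted as well above background.

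Among regulators known from stress responses, LjMBF1-1, of a family whose member MBF1c acts in the heat response of Arabidopsis, gave 7.48, 7.77 and 7.62 in 3 h leaves, against 2.56, 2.74, 1.07 and 0.92 in unelicited leaves (log2 fold change 5.80, SE 0.50, adjusted p = 3.10e-06), high at 3 h on every array. MBF1 names were 1 of 5 up and 1 down with all 4 unelicited arrays, and 4 up on slide 2. Heat shock factors were 14 of 21 up and 0 down, WRKY factors 55 of 74 up and 6 down, or 41 and 17 scaled on the probes measured on all arrays, ERF factors 46 of 99 up and 20 down, or 33 and 33 scaled on the probes measured on all arrays, NAM factors 29 of 54 up and 12 down, or 15 and 16 scaled on the probes measured on all arrays and bZIP factors 25 of 48 up and 12 down, or 16 and 19 scaled on the probes measured on all arrays. LjbZIP24 gave 6.09, 6.62 and 6.80 in 3 h leaves, against 1.22, 1.27, 0.74 and 0.57 in unelicited leaves (log2 fold change 5.55, SE 0.31, adjusted p = 1.84e-07), and LjWRKY6 fell against its family by 3.04 (SE 0.30). The leaves were at 28 °C in GSH, and the part of warmth in these values was not tested. LjNAC3 gave 6.42, 5.82 and 5.96 in 3 h leaves, against 2.17, 1.90, 3.22 and 3.26 in unelicited leaves (log2 fold change 3.43, SE 0.39, adjusted p = 1.97e-05).

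Smaller families held single strong members. LjTAZ2, of a zinc finger class found in transcriptional co-activators, gave 5.09, 4.67 and 4.50 in 3 h leaves, against −1.71, −1.94, −0.30 and −0.94 in unelicited leaves (log2 fold change 5.97, SE 0.40, adjusted p = 4.84e-07), in a family of 4 of 6 up and 0 down, or 3 and 3 after quantile normalization and 2 and 1 scaled on the probes measured on all arrays. LjLIM10 rose by 4.78 (SE 0.47) among LIM names that were 4 of 14 up and 7 down, or 4 and 2 with normexp background correction, 4 and 2 with spike-in scaling on slide 2. Jumonji-C proteins, many of them histone demethylases, were 7 of 15 up and 5 down, or 3 and 6 scaled on the probes measured on all arrays, 3 and 5 with spike-in scaling on slide 2. LjJumonji-C16 gave −3.82, −2.30 and −2.56 in 3 h leaves, against 4.0, 3.82, 0.60 and 0.27 in unelicited leaves, lower at 3 h on every array and higher on unelicited slide 1 than on slide 2. ARID names were 1 of 9 up and 5 down (median −3.02, or −1.03 with dim members held at their bounds), and LjARID4 was at least 11.6-fold lower (adjusted p = 9.82e-07), while with normexp background correction 0 ARID names rose and 0 fell. Names of the ethylene-insensitive type (EIL), which relay the ethylene signal, were 1 of 6 up and 3 down: LjEIL2 gave 3.21, 3.38 and 3.38 in 3 h leaves, against 1.96, 2.08, 2.58 and 2.31 in unelicited leaves, and LjEIL1_est gave 0.95, 1.15 and 0.97 in 3 h leaves, against 3.64, 3.71, 2.60 and 2.09 in unelicited leaves. The changes were small, 1.09 (−0.13 after quantile normalization, not past the threshold) and −1.99, with no overlap.

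**Figure D5:**
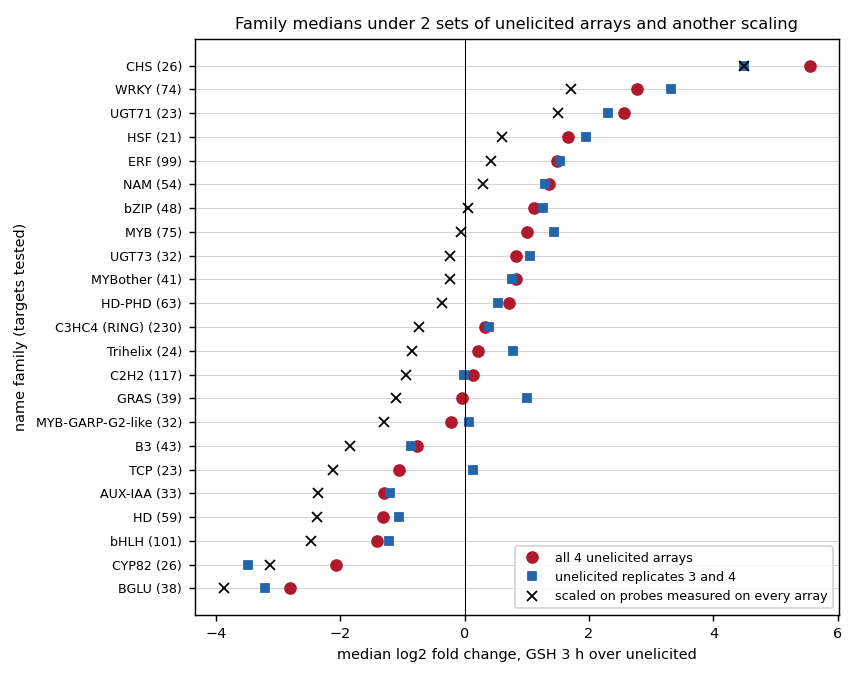
Median log2 fold change (GSH 3 h over unelicited) of each family with at least 20 targets tested, with all 4 unelicited arrays (circles), with unelicited replicates 3 and 4 (squares) and scaled on probes measured on every array (crosses, which lie to the left of the circles by about the shift of all targets). CHS, WRKY, UGT71, HSF, ERF, NAM and bZIP medians stay above 0 under all 3, the GRAS, TCP, C2H2 and MYB-GARP-G2-like medians change sign with the unelicited arrays used, and the C3HC4, C2H2, MYB, HD-PHD, MYBother, UGT73 and Trihelix medians turn negative under the other scaling.

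Names also carry clones, and 15 clones held at least 4 tested targets. On 5 of them every target rose, on 1 every target fell, and 4 had targets in both directions. The 6 PAL names of clone CM0033 on chromosome 1 rose by 3.44 to 5.25. On CM0018 of chromosome 2 the 8 CHS names and 1 CoumLig name rose and a CYP97B name fell. CM0216 of chromosome 3 carried CHS03_chr3.CM0216.300.nc, both PTR names and an IFR name, all higher. CM0126 of chromosome 4 held the 5 targets that all fell, a beta-glucosidase, a CYP706A and 3 FHYD names, by 3.58 to 4.15 for the 4 measured at 3 h. CM0739 of chromosome 4 was uneven: IFLGT03_chr4.CM0739.130.nd rose by 11.46 while 3 of its 5 tested targets did not pass. CM0249 of chromosome 2 held both IFR6_chr2.CM0249.1070.nc, which rose, and IFR5_chr2.CM0249.1110.nc, which fell by 1.53. Names that share a clone can share sequence, so near-equal members are not independent.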

How the data were processed

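Cy3-labelled total RNA from Lotus japonicus leaves was measured on one-colour arrays, which were read with Agilent Feature Extraction 10.7.3.1 per the submitters' processing notes and the file headers. The deposited intensity of a spot is the processed signal, background-subtracted and spatially detrended but not scaled between arrays, per the file headers. Its log2 was taken here, and the 75th percentile of an array's non-control probes was subtracted. Spots flagged as outliers were left out, no spot was saturated, and each probe had a single spot. Genes were named from the files alone, since the reference table matched 0 names. The genome build is not given in the sources used here.

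A probe was tested where it was well above background on all arrays of 1 or more of the 3 groups. The test was limma 3.58.1 in R 4.3.3 (lmFit, eBayes, Benjamini-Hochberg). The 3 h against unelicited contrast was fitted over all 10 arrays, 6 h arrays included, and over the 8 arrays of slide 2. Scripts ran in Python 3.11.15 with pandas 2.3.3, and the fit was tested on simulated data. Of a target's probes the one named had the highest mean signal over all arrays; its other probe is given for some targets where they differ. Families are shared name prefixes.

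The text names targets from a rule that picked 386: the 12 largest rises and 12 largest falls by the smaller change of both fits (2 per family at most, arrays not overlapping, measured throughout the higher group), up to 2 rises and 2 falls of each family with at least 5 tested, the targets of the phenylpropanoid, chalcone, isoflavonoid, flavonoid and cyanogenic lists, and the 10 with the largest difference between fits. The members and lists were chosen with earlier results of these data known. Same-numbered 3 h and unelicited arrays correlated at 0.023, 0.057 and 0.052 in their deviations from group means. The main fit has no replicate block, though this check cannot exclude pairing, as the unelicited deviations hold the slide difference. Alternatives were normexp (offset 50) on median spot and background signals, as the files hold no mean signal, 3 other scalings, 3 other filters, the slide or the replicate number as a block, a variance trend, outlier spots kept, 1 probe per target, only the arrays compared, and leaving out each array.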

Additional observations from a re-analysis of the deposited data

Results flagged for a closer look

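In 5 of the 141 targets named in the text that have a value on all 4 unelicited arrays, 1 unelicited array stood far from the other 3, its gap to the nearest of them exceeding the share of the whole range that Dixon's test allows. Chance alone gives about 1 in 20 such groups. For CoumLig16_chr6.CM0057.160.nc the 4 unelicited signals were 1.26, 1.29, 1.28 and 1.99, and the share of their range taken by the gap was 0.9614, with replicate 4 highest. For LjZF-C2C2-YABBY2 the 4 unelicited signals were 0.68, 0.66, 0.24 and 0.66, and the share of their range taken by the gap was 0.9547, with replicate 3 lowest. For CYP82B_LjT30J19.120.nd the 4 unelicited signals were 3.26, 3.31, 2.52 and 3.18, and the share of their range taken by the gap was 0.8371, with replicate 3 lowest. For UGT90A_chr2.CM0124.40.nc the 4 unelicited signals were 5.10, 5.17, 5.74 and 5.21, and the share of their range taken by the gap was 0.8307, with replicate 3 set apart. For CYP706A_LjSGA_035363.1 the 4 unelicited signals were 1.15, 1.13, 1.25 and 1.85, and the share of their range taken by the gap was 0.8294, with replicate 4 highest. In all 5 the array that stood apart was on slide 2, and in all 5 the 3 h arrays lay outside the range of the unelicited ones.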

How the results depend on the processing

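The count of differing probes (2456 with all 4 unelicited arrays, 2581 on slide 2 alone) moved with the background correction and the filter. Normexp on the median signals gave 1576 and 1616, of which 578 and 575 were lower. Probes well above background on all 10 arrays gave 1499 and 1633, with 546 and 610 lower, since fewer probes were tested. One probe per target gave 1453 (736 higher, 717 lower) and 1543 (793 higher, 750 lower) for the same reason. Scaling by the 75th percentile of commonly measured probes left the total near that of all probes but gave 801 and 879 higher, and families with more rises than falls dropped to 17, against 39 as reported. Named targets past the threshold numbered 207 on the probes measured everywhere, against 363, again with fewer tested. Leaving out single arrays gave 2237 to 2459 and 2247 to 2468 probes. The fit with a replicate block gave 2432 (1209 higher, 1223 lower). Same-numbered arrays correlated at 0.023 to 0.057 in their deviations. The unelicited deviations hold the slide difference, so this check cannot tell whether the numbers mark pairs. Single directions turned: CHS05_chr1.CM0178.460.nc to −0.97 and CHS07_chr3.CM0091.780.nd to −0.60 under that scaling, and after quantile normalization CHS05_chr1.CM0178.460.nc to −1.87, LjB3-8 to −1.41, CYP74A_chr5.CM0089.580.nd to −0.26 and LjEIL2 to −0.13; the cause was not tested. Without unelicited replicate 1, CYP736A2_ntc (−4.10) and FHYD08_LjT37G19.90.nc (−4.33) passed, as they did without replicate 2. CYP71A_chr3.CM0241.540.nd (−4.66) did not pass without 3 h replicate 2. Names of 7Methyl had 1 up and 2 down without unelicited replicate 1, GRAS names 13 and 15 without unelicited replicate 4, and LIM names 4 and 3 without 3 h replicate 2. The replicate block turned GRAS (13 and 14) and MYB-GARP-G2-like names (9 and 10), and the filter on all 10 arrays turned IFLGT (2 and 0), ARID (1 and 0) and SRS names (1 and 0). Probes near background were more common at 3 h, and they limit the depth of the falls that reach that level.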

Other observations

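P450 families beyond those given above were also mostly lower at 3 h. CYP76 names were 1 of 18 up and 12 down (median −3.99, or −3.67 with dim members held at their bounds), and CYP76E_LjT29E04.90.nd gave −4.81, −5.34 and −6.12 in 3 h leaves, against 1.16, 0.69, 0.76 and 1.04 in unelicited leaves, at least 46.9-fold lower (limma adjusted p = 4.52e-07). CYP82 names were 5 of 26 up and 18 down, with 2 members far apart in direction. CYP82A_LjSGA_013827.2 gave −3.46, −3.05 and −4.85 in 3 h leaves, against 3.78, 3.92, 6.30 and 6.50 in unelicited leaves, and CYP82A_LjSGA_052400.1 gave 5.40, 4.62 and 5.21 in 3 h leaves, against −3.19, −3.30, −2.42 and −2.31 in unelicited leaves. The P450 families that act on fatty acids were 0 of 14 up and 12 down, or 0 and 5 with normexp background correction. A single tested CYP98 target, a name of the coumarate ester hydroxylases of lignin synthesis, rose by 4.43 (3 h over unelicited, log2).

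Among regulators, bHLH names were 21 of 101 up and 59 down (median −1.41), or 19 and 28 with normexp background correction, against the direction of LjbHLH86. LjbHLH82 gave −6.13, −5.44 and −5.42 in 3 h leaves, against 2.08, 1.87, 1.37 and 1.21 in unelicited leaves, at least 77.5-fold lower (adjusted p = 6.81e-08), and LjbHLH73 gave 3.15, 3.71 and 3.74 in 3 h leaves, against −6.56, −5.19, −3.09 and −1.45 in unelicited leaves. Both separated the 3 h arrays from all unelicited arrays. DOF zinc fingers, a plant-specific family, were 1 of 18 up and 10 down, or 1 and 4 with normexp background correction, and LjZF-C2C2-DOF12 gave −2.71, −3.32 and −3.24 in 3 h leaves, against 1.29, 1.48, 1.80 and 1.39 in unelicited leaves (log2 fold change −4.58, SE 0.34, adjusted p = 1.07e-06). Trihelix names were 9 of 24 up and 6 down, or 6 and 10 scaled on the probes measured on all arrays, and LjTrihelix19 was at least 15.5-fold lower (adjusted p = 1.59e-04), but did not pass with normexp background correction (−1.46).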
